A study of Mus musculus with 10 samples.

Results

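The genes described here encode the proteins of the cytosolic ribosome. They were chosen by annotation and not by a measured value. The rule took each protein-coding gene of GENCODE M21 named Rpsa, Rplp0, Rplp1 or Rplp2, or named Rpl or Rps followed by digits and at most 1 final letter a or x. It found 76 genes among the 30460 listed in the files, 30 of the small subunit, 43 of the large subunit and 3 of the stalk of the large subunit. Levels are in FPKM, reads per kilobase of exon scaled to library depth. All 76 reached 0.5 FPKM in at least 2 libraries and were tested.

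RNA of mouse embryonic stem cells, labelled as C57BL/6 in strain, was sequenced in 10 libraries. They were 3 of the genotype Mga-/-, 2 of L3mbtl2-/-, 2 of Pcgf6-/- and 3 of wild type (WT) cells, and each knockout was set against WT. Mga, L3mbtl2 and Pcgf6 encode subunits of PRC1.6, a Polycomb complex that represses germ cell genes in stem cells. The labels do not say whether libraries of a genotype came from separate clones or cultures or which exons were deleted, and a p-value here reflects the spread among these libraries alone, which may be technical.

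A ribosome is built from a small subunit, which reads the mRNA, and a large subunit, which joins amino acids. Nearly every ribosomal protein is needed once per ribosome, and their mRNAs are among the most abundant of growing cells. Most of them begin at a C followed by a run of pyrimidines, the terminal oligopyrimidine (TOP) motif, through which mTOR and the RNA-binding protein LARP1 control their translation and stability. Rplp0, Rplp1 and Rplp2 form the stalk that recruits elongation factors, and Rpsa is a small subunit protein also known as a laminin receptor.

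RefSeq gave a promoter for 56 of the 76 genes (GRCm38.p6, from 250 bases before to 50 after the start, 66 windows in all). The longest run of C or T within 50 bases of the start had a median of 11 bases in these windows and 7 bases in all 32851 RefSeq windows. A run of at least 8 was present in 81.8% of them, against 35.7% of all windows. Stretches near the RefSeq start are shown for 7 genes described below. Of these, Rpl10, Rplp2, Rps12, Rps26, Rps9 and Rpl35a fell in L3mbtl2-/- cells, and Rpl31 rose. Each is at most 30 bases of the gene's own strand, 5′ to 3′, with the pyrimidine run in capitals.
Rpl10: tgggagcgTCTCTTTTCC
Rplp2: cgtcagcgTCTTCCTTTCgccgccggacgc
Rps12: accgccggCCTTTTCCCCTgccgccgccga
Rps26: ccgccggaTCCTCTTTCgagtcttggctcc
Rps9: ccgccttgTCTCTCTTTgtctcgggcctga
Rpl35a: ggggcttgCCTTCCTCTTTCCgccatcttg
Rpl31: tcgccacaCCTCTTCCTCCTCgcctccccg
These stretches lie at chrX:74270848-74270865 (plus strand) for Rpl10, chr7:141447638-141447667 (plus strand) for Rplp2, chr10:23787180-23787209 (minus strand) for Rps12, chr10:128626482-128626511 (minus strand) for Rps26, chr7:3704027-3704056 (plus strand) for Rps9, chr16:33056469-33056498 (plus strand) for Rpl35a and chr1:39367825-39367854 (plus strand) for Rpl31. The runs are 10 bases in Rpl10, where the RefSeq window ends, 10 in Rplp2, 11 in Rps12, 9 in Rps26, 9 in Rps9, 13 in Rpl35a and 13 in Rpl31. Counted in bases from the RefSeq start, the runs begin at 40 in Rpl10, -5 in Rplp2, 8 in Rps12 and 3 in Rps26. In Rps9, Rpl35a and Rpl31 they begin at -6, 24 and -18, where a negative value lies before the start. A run is a match of letters and not a measured start of transcription, and whether any is a TOP motif was not tested.

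Library depth was 19370092 to 26726692 reads. The 7 embryonic stem cell markers summed to 2874 to 3185 FPKM in libraries labelled Mga-/-, 3194 to 3269 in L3mbtl2-/-, 3546 to 3670 in Pcgf6-/- and 2022 to 2222 in WT. Macrophage markers, 9 in all, summed to 8.66 to 31.6 FPKM in libraries labelled Mga-/-, 441 to 453 in L3mbtl2-/-, 205 to 207 in Pcgf6-/- and 156 to 163 in WT, and Pf4, Clec4n, Tyrobp or Ptprc were listed at 0 in 1 or more of the libraries labelled Mga-/-. Fibroblast markers, 10 in all, summed to 508, 159 and 177 FPKM in libraries labelled Mga-/- replicates 1, 2 and 3, 159 to 160 in L3mbtl2-/-, 102 to 106 in Pcgf6-/- and 144 to 146 in WT. The library labelled Mga-/- replicate 1 stood apart in these markers and in the median log2 change from WT of the other genes of chromosomes 1, 6, 12, 14 and 18, which was 0.44 to 0.57 there, against 0.04 to 0.28 in the other 2 of its label. The part of these other cells in the results was not tested, and in bulk RNA fewer cells of a type and less RNA per cell cannot be told apart.

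The targeted genes were read first, although reads outside a deleted stretch check nothing. L3mbtl2 was at 3.72 and 3.49 FPKM in L3mbtl2-/- libraries, against 19.8, 20.5 and 20.3 in WT. Pcgf6 was at 9.56 and 9.82 FPKM in Pcgf6-/- libraries, against 29.4, 29.7 and 27.6 in WT. Mga was at 8.03 and 11.2 FPKM in libraries labelled Mga-/- replicates 1 and 3, against 19.7, 18.6 and 17.1 in WT. The library labelled Mga-/- replicate 2 had 19.6 FPKM of Mga, at the WT level, and it also stood apart in the ribosomal protein genes, so counts over the 76 genes are given with and without it. Below, Mga-/- cells means the 3 libraries so labelled, this one included, wherever nothing else is said.

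Ribosomal protein mRNA was abundant and uneven in level. The gene lengths behind the FPKM ran from 404 bases in Rpl36 to 6270 in Rps15a, with 447 in Rps26 and 476 in Rps12. The part of unequal length in the ranking that follows was not tested. On the FPKM scale, which is per length, the highest mean levels over the 10 libraries were those of Rps26 (2802), Rps12 (2421), Rplp0 (2048) and Rpl8 (1910). The lowest were Rpl24 (0.28), Rpl35 (29.4), Rpl23a (34.7) and Rpl39 (71.8). In 3 of these 4 low genes much of the exon sequence is shared with another gene, and reads that fall on both can be lost in counting: 47.0% of the exon bases of Rpl24 overlap Gm28037, 66.2% of Rpl35 overlap another gene (Wdr38 foremost), and 62.3% of Rpl23a (Tlcd1 foremost). The part of such losses in the low levels was not tested. Rpl24 varied most within a group, at 0 and 0.652 FPKM in Pcgf6-/- libraries and 0.569, 0.291 and 0.182 in WT, so its level is uncertain. Rpl23a and Rpl14 also varied widely among libraries labelled Mga-/-, with SDs of 0.56 and 0.47 on the log2 scale.

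The 76 genes took 5.28%, 6.64% and 5.11% of all reads in libraries labelled Mga-/-, 4.83% and 4.88% in L3mbtl2-/-, 6.50% and 6.62% in Pcgf6-/- and 6.10%, 6.39% and 6.62% in WT. Both L3mbtl2-/- libraries lay below every WT library, as did the libraries labelled Mga-/- replicates 1 and 3. The library labelled Mga-/- replicate 2 lay above every WT library, and Pcgf6-/- overlapped WT. The group means were 5.68 ± 0.84% in those labelled Mga-/- (SD, n = 3), 4.86 ± 0.04% in L3mbtl2-/- (SD, n = 2), 6.56 ± 0.08% in Pcgf6-/- (SD, n = 2) and 6.37 ± 0.26% in WT (SD, n = 3). Shares are relative within a library and say nothing of RNA per cell.

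**Figure D1:**
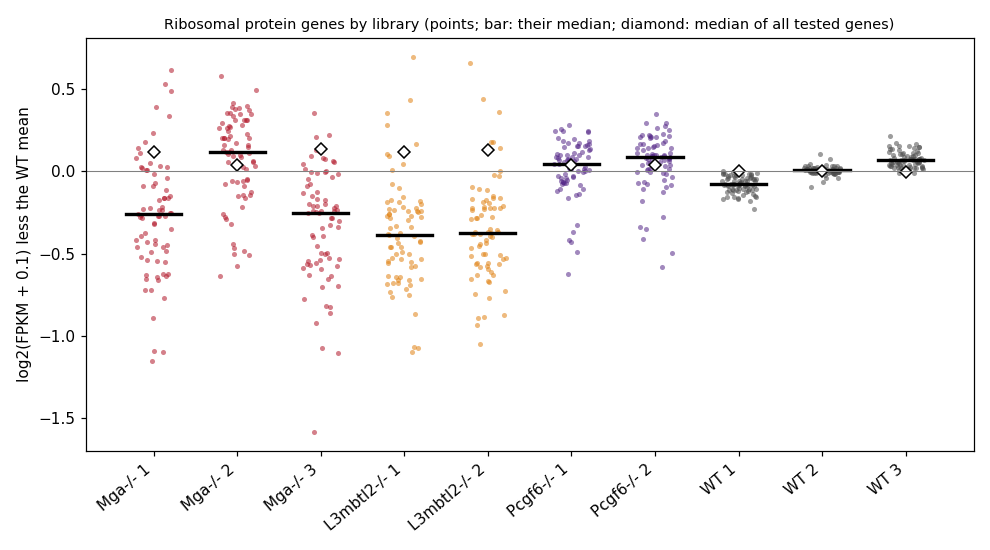
Change of each ribosomal protein gene from the WT mean, on the log2(FPKM + 0.1) scale, in the 10 libraries (points; Rpl24 is left out of the points for its spread; black bar: median of the 76 genes; white diamond: median of all 15731 tested genes). The medians are -0.26, 0.12 and -0.25 in the libraries labelled Mga-/-, -0.39 and -0.38 in L3mbtl2-/-, 0.04 and 0.09 in Pcgf6-/- and -0.08, 0.01 and 0.07 in WT.

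L3mbtl2-/- cells had less mRNA of most ribosomal protein genes than WT cells. Of the 76 genes, 39 fell and 3 rose at an adjusted p under 0.05, in limma on log2(FPKM + 0.1) with Benjamini-Hochberg adjustment over all 15731 tested genes. That is 51.3% lower, against 16.7% of all tested genes, and 3.95% higher, against 23.4%. The median log2 change was -0.39 for the 76 genes and 0.13 for all tested genes. In 66 of the 76 both L3mbtl2-/- libraries lay below all 3 WT libraries, a pattern that 32.8% of all tested genes showed, and 4 lay above, against 46.7%. The small subunit had 18 of 30 lower with a median of -0.46, the large subunit 18 of 43 lower and 3 higher with a median of -0.32, and all 3 stalk genes were lower. The count higher was 1 without either L3mbtl2-/- library or WT replicate 1 or 2, and 2 without WT replicate 3 or any one Pcgf6-/- library. The count lower was 8 or 10 without either L3mbtl2-/- library (replicate 1 or 2), which leaves a lone sample assumed to vary like the other groups, and 19 or 15 without WT replicate 2 or 3, while the median stayed between -0.43 and -0.34. With the 2 groups compared fitted alone 62 were lower, and with a spread per group 64. The shares of all tested genes in these refits are not given here, so such counts cannot be set against the 16.7% of the main fit.

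Rpl10, on the X chromosome, encodes a late-joining protein of the large subunit near its catalytic centre. It was at 302 and 312 FPKM in L3mbtl2-/- libraries, against 638, 648 and 654 in WT. The groups did not overlap, and the log2 change of Rpl10 was -1.08 (SE 0.13, adjusted p = 0.000592, limma). Rps13, a small subunit protein, was at 57.6 and 63.4 FPKM in L3mbtl2-/- libraries, against 113, 121 and 131 in WT. Its log2 change was -1.005 (SE 0.15, adjusted p = 0.00127, limma), and near-identical pseudogene copies of Rps13 together had about as many FPKM as the gene, 80.4 on average against 99.9. With the reads of the copies added, both L3mbtl2-/- libraries stayed below WT, at 63.7 and 71.2 FPKM against 130, 138 and 149.

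All 3 stalk genes and Rpsa fell in L3mbtl2-/- cells. Rplp1 was at 859 and 972 FPKM in L3mbtl2-/- libraries, against 1604, 1827 and 2003 in WT (log2 change -0.98, SE 0.20, adjusted p = 0.00492, limma), and its adjusted p was 0.0527 without L3mbtl2-/- replicate 1. Rplp0, the scaffold of the stalk, was at 1615 and 1639 FPKM in L3mbtl2-/- libraries, against 2415, 2548 and 2664 in WT (-0.64, SE 0.12, adjusted p = 0.00405). Rplp2 was at 150 and 159 FPKM in L3mbtl2-/- libraries, against 227, 240 and 253 in WT (-0.64, SE 0.10, adjusted p = 0.00191). Rpsa was at 862 and 857 FPKM in L3mbtl2-/- libraries, against 1438, 1474 and 1480 in WT (-0.77, SE 0.19, adjusted p = 0.0133), a call lost without either L3mbtl2-/- library, at adjusted p up to 0.0784. Each of these 4 genes was lower in both L3mbtl2-/- libraries than in any WT library.

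Rpl23a, of the large subunit, fell by 0.80 (adjusted p = 0.0396), with 28.9 and 26.1 FPKM in L3mbtl2-/- libraries, against 43.4, 47.3 and 54.1 in WT. Its call was lost on leaving out any 1 of 7 libraries, all but the 3 labelled Mga-/-. The most abundant member, Rps26, fell by 0.47 (adjusted p = 0.0148), with 2322 and 2184 FPKM in L3mbtl2-/- libraries, against 3077, 3029 and 3226 in WT, and Rps12 by 0.67 (adjusted p = 0.0152), with 1824 and 1811 FPKM, against 2740, 2929 and 2998 in WT. Rps9, at 273 and 280 FPKM in L3mbtl2-/- libraries, against 376, 397 and 421 in WT (-0.52, adjusted p = 0.0108), and Rpl35a, at 77.9 and 76.5 FPKM, against 100.4, 109 and 120 in WT (-0.50, adjusted p = 0.0202), were picked for display after their values were seen. In all 5 genes both L3mbtl2-/- libraries lay below every WT library.

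Rpl31, Rpl32 and Rpl7, all of the large subunit, were the 3 that rose in L3mbtl2-/- cells. Rpl31 was at 380 and 371 FPKM in L3mbtl2-/- libraries, against 228, 234 and 241 in WT (0.68, SE 0.10, adjusted p = 0.0015, limma). Rpl32 was at 773 and 778 FPKM in L3mbtl2-/- libraries, against 539, 578 and 600 in WT (0.44, SE 0.12, adjusted p = 0.0182). Rpl7 was at 509 and 513 FPKM in L3mbtl2-/- libraries, against 389, 402 and 405 in WT (0.36, SE 0.12, adjusted p = 0.0482). Rpl31 and Rpl7 are on chromosome 1, where the 901 other tested genes had a median change of 0.76 in this comparison, and Rpl32 is on chromosome 6, where 749 others had a median of 0.23. Measured against the other genes of their chromosome the sign of both chromosome 1 genes turned, to -0.08 for Rpl31 and -0.40 for Rpl7, and 0 of the 76 genes rose while 49 fell. Chromosome copy number was not tested.

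**Figure D2:**
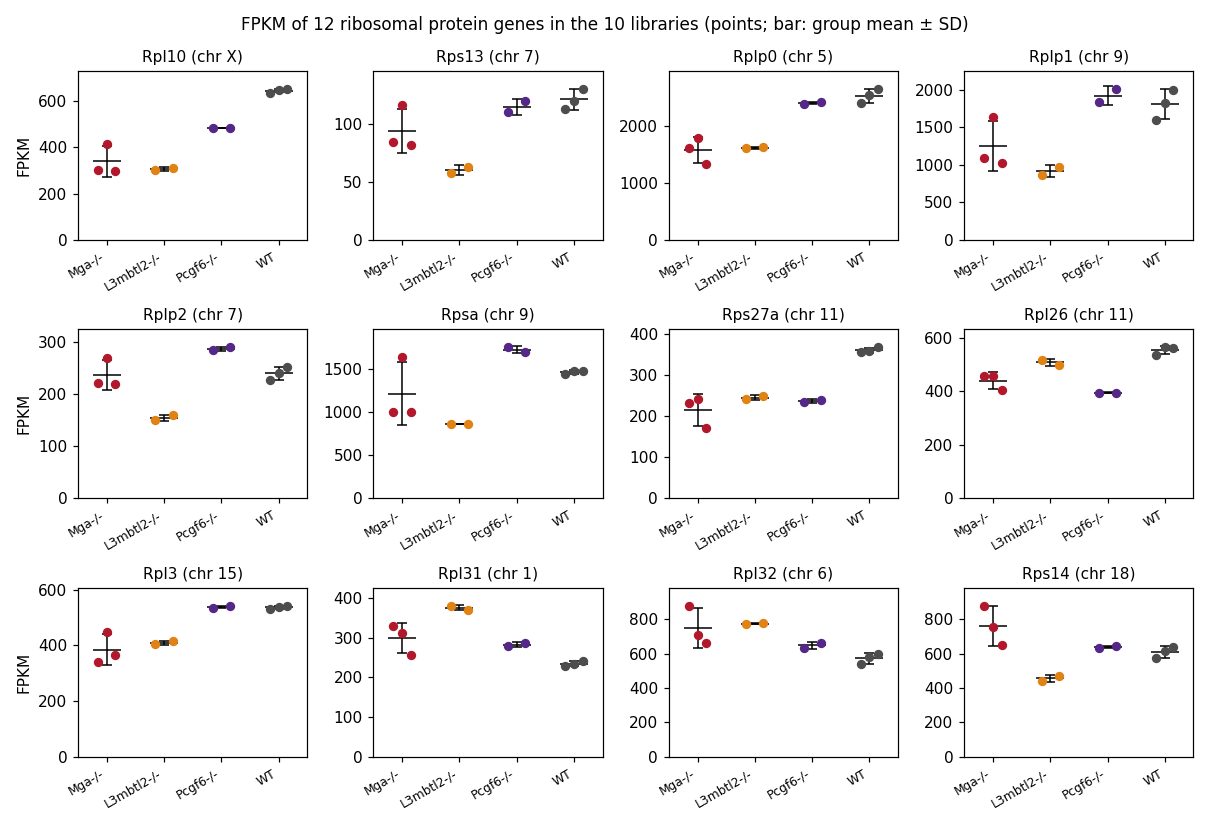
FPKM of 12 ribosomal protein genes in each library (points), with the group mean ± SD (n = 3 for Mga-/- and WT, n = 2 for the other two groups) on axes that start at 0. Rpl10, Rps13 and the stalk genes are lowest in L3mbtl2-/- libraries or in the libraries labelled Mga-/-, Rps27a and Rpl26 are below WT in Pcgf6-/- libraries too, and Rpl31 and Rpl32 are above WT in every knockout library.

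In the libraries labelled Mga-/- the ribosomal protein genes divided by library. In replicates 1 and 3, 52 and 56 of the 76 genes (68.4% and 73.7%) lay below all WT libraries, against 37.8% and 35.6% of all tested genes. There 9 and 6 (11.8% and 7.89%) lay above, against 50.3% and 51.3%. In the library labelled Mga-/- replicate 2, 18 (23.7%) lay below, against 39.2% of all tested genes, and 46 (60.5%) above, against 45%. Over all 3 libraries, 20 genes fell (26.3%, against 16.7% of all tested genes) and 5 rose (6.58%, against 22.8%), with a median log2 change of -0.15, against 0.10 for all tested genes. Without the library labelled Mga-/- replicate 2, 47 fell (61.8%, against 22.5% of all tested genes) and 4 rose (5.26%, against 32.6%), and the median was -0.26, against 0.13. Of the other single libraries, leaving out the one labelled Mga-/- replicate 3, WT replicate 2 or WT replicate 3 gave 13, 11 or 10 lower, and the count higher was 3 without the one labelled Mga-/- replicate 1, 8 without replicate 3, 2 without any one L3mbtl2-/- or Pcgf6-/- library and 0 without WT replicate 1 or 2. Groups did not overlap for 17 genes lower and 5 higher, against 20.5% and 28.3% of all tested genes.

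Rpl10 was at 303, 416 and 300 FPKM in libraries labelled Mga-/-, against 638, 648 and 654 in WT, with no overlap (-0.95, SE 0.12, adjusted p = 0.000613, limma). Rpl29 was at 493, 765 and 581 FPKM in libraries labelled Mga-/-, against 1008, 1060 and 1098 in WT (-0.81, SE 0.14, adjusted p = 0.0028). Rplp0 was at 1624, 1796 and 1342 FPKM in libraries labelled Mga-/-, against 2415, 2548 and 2664 in WT (-0.69, SE 0.11, adjusted p = 0.00183). In these 3 genes the library labelled Mga-/- replicate 2 was the closest to WT, and it still lay below every WT library. Rpl23a (-1.08, adjusted p = 0.00803), Rps27a (-0.76, adjusted p = 0.00171), which encodes a small subunit protein fused to ubiquitin, and Rpl30 (-0.64, adjusted p = 0.0127) were the other 3 of the 6 largest falls. These 6 calls stayed past the threshold under all 21 alternatives.

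Of the rest of the stalk, Rplp1 fell by 0.56 (adjusted p = 0.0322), with 1096, 1634 and 1020 FPKM in libraries labelled Mga-/-, against 1604, 1827 and 2003 in WT, so its groups overlapped. Rplp2 was at 221, 270 and 219 FPKM in libraries labelled Mga-/-, against 227, 240 and 253 in WT (-0.02, SE 0.09, adjusted p = 0.846). Rpsa was at 1002, 1636 and 1004 FPKM in libraries labelled Mga-/-, against 1438, 1474 and 1480 in WT (-0.31, SE 0.17, adjusted p = 0.181). The library labelled Mga-/- replicate 2 was above all WT libraries in Rplp2 and Rpsa. Without it the change of Rpsa was -0.54 (adjusted p = 6.49e-05, limma), that of Rplp1 -0.77 (adjusted p = 0.000642) and that of Rplp2 -0.12 (adjusted p = 0.108), and Rplp1 did not pass without the library labelled replicate 1 or 3 (adjusted p = 0.0764 and 0.098).

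Rpl32 (0.38, adjusted p = 0.0212), Rpl31 (0.35, adjusted p = 0.0184), Rps14 (0.31, adjusted p = 0.0479), Rpl41 (0.30, adjusted p = 0.0346) and Rps19 (0.24, adjusted p = 0.0319) were the 5 that rose. Rps14, a small subunit protein of its platform, was at 879, 755 and 649 FPKM in libraries labelled Mga-/- and at 443 and 471 in L3mbtl2-/-, against 572, 616 and 638 in WT. It fell in L3mbtl2-/- cells (-0.41, adjusted p = 0.0254) and differed between the 2 knockouts (0.73 higher in Mga-/- than in L3mbtl2-/-, SE 0.12, adjusted p = 0.00386). Rps14 lies on chromosome 18 and Rpl32 on chromosome 6, and without the library labelled Mga-/- replicate 1 their changes were 0.20 (adjusted p = 0.0754) and 0.26 (adjusted p = 0.0138). The part in these rises of what sets that library apart was not tested. The calls of Rps14, Rpl41 and Rps19 were lost under 17, 15 and 12 of 21 alternatives and those of Rpl32 and Rpl31 under 6 each, where the changes went down to 0.10 and 0.04. With median-of-ratios size factors 0 of the 76 rose and 20 fell in limma. With the deposited scaling 29 of 76 had an unadjusted p under 0.05 in either direction (38.2%, against 49.4% of all tested genes), and limma-voom on recovered reads gave 5 higher and 20 lower. The deposited scaling sets the median of all tested genes 0.10 above WT in Mga-/- and 0.13 above in L3mbtl2-/-, and the member medians are -0.25 and -0.52 when read against that median.

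In Pcgf6-/- cells few ribosomal protein genes passed the test, in a fit that shares 1 spread among all groups. Rps27a and Rpl26 fell, 2 of 76 or 2.63%, against 4.62% of all tested genes, and 0 rose, against 5.45% (limma, 9 of 76 or 11.8% at an unadjusted p under 0.05 in either direction, against 26.6%, and 1 higher with limma-voom). Their median change was 0.06, against 0.04 for all tested genes. Rps27a was at 233 and 240 FPKM in Pcgf6-/- libraries, against 354, 358 and 367 in WT (-0.60, SE 0.13, adjusted p = 0.0253). Rpl26, a large subunit protein that also binds p53 mRNA, was at 396 and 393 FPKM in Pcgf6-/- libraries, against 538, 565 and 563 in WT (-0.49, SE 0.08, adjusted p = 0.00757). Both lie on chromosome 11, whose 1345 other tested genes had a median change of -0.31 in Pcgf6-/- cells, and neither was past the threshold when measured against those genes. Libraries did not overlap for 28 genes higher and 13 lower, against 36.2% and 29.2% of all tested genes. With the 2 groups fitted alone 15 genes rose and 6 fell, with a spread per group 20 and 8, and without the library labelled Mga-/- replicate 1, 2 or 3 the counts were 1 and 4, 6 and 5, and 2 and 3. The shares of all tested genes in these refits are not given here, so the counts cannot show whether ribosomal protein genes moved more than others. Without either Pcgf6-/- library 0 passed, and without any one L3mbtl2-/- or WT library 1 fell.

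**Figure D3:**
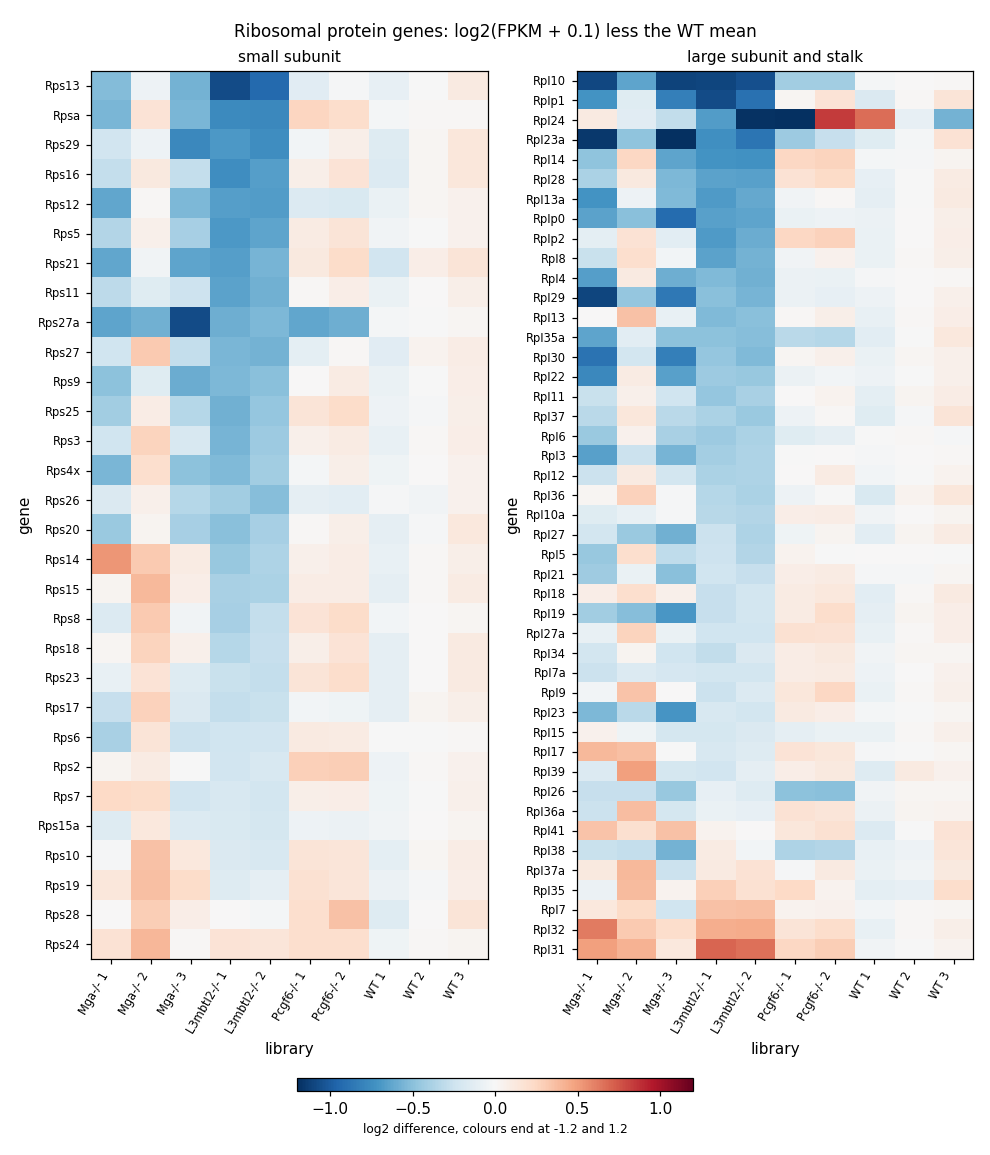
Log2(FPKM + 0.1) less the WT mean for the ribosomal protein genes reported here (rows, small subunit left, large subunit and stalk right, sorted by the change in L3mbtl2-/- cells) in the 10 libraries (columns). Of all 76 genes, 67 and 66 (88.2% and 86.8%) are below every WT library in the L3mbtl2-/- columns, against 36.2% and 35.8% of all tested genes. In the library labelled Mga-/- replicate 2, 46 (60.5%) are above every WT library, against 45%.

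The knockouts were also compared with each other. Shares of all tested genes given for these comparisons belong to the fit over all 10 libraries. Those with a library left out are not given here, so such counts cannot be set against them. L3mbtl2-/- cells had 38 genes lower and 3 higher than Pcgf6-/- cells (50% lower, against 13.9% of all tested genes, and 3.95% higher, against 16.6%), with a median of -0.41. Without any one of the 2 L3mbtl2-/- and 2 Pcgf6-/- libraries 7 or 8 were lower and 0 higher, 60 were lower without the library labelled Mga-/- replicate 2, and 1 was higher without WT replicate 2. Rplp1 was 1.08 lower (adjusted p = 0.00735), Rpsa 1.002 lower (adjusted p = 0.00917), Rps13 0.93 lower (adjusted p = 0.00437) and Rplp2 0.90 lower (adjusted p = 0.00105). Mga-/- cells had 17 genes higher and 2 lower than L3mbtl2-/- cells (22.4% higher, against 10.9%, and 2.63% lower, against 12%), with a median of 0.23. Without L3mbtl2-/- replicate 1 or 2 the count higher was 0 or 2 and that lower 0. Without the libraries labelled Mga-/- replicates 1, 2 and 3 in turn the counts were 27 and 4, 23 and 12 (median 0.09), and 21 and 1. Without a Pcgf6-/- or WT library at most 1 was lower. Against Pcgf6-/- cells, Mga-/- cells had 14 lower and 0 higher (18.4% lower, against 10.6%, and 12% of all tested genes higher; limma, 25 of 76 or 32.9% at an unadjusted p under 0.05 in either direction, against 37.9%), and 46 lower without the library labelled Mga-/- replicate 2. Without the one labelled Mga-/- replicate 3 it was 7 lower and 3 higher, 1 lower without either Pcgf6-/- library, and 8 or 9 lower without any one L3mbtl2-/- or WT library. Rpl10 was 0.53 lower in Mga-/- than in Pcgf6-/- cells (adjusted p = 0.0234) and 0.66 lower in L3mbtl2-/- than in Pcgf6-/- cells (adjusted p = 0.0113). It stood at 483 and 485 FPKM in Pcgf6-/- libraries, below every WT library, without passing the threshold (-0.42, SE 0.13, adjusted p = 0.0826).

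The members are spread over 19 chromosomes, and the median change of the other genes differed by chromosome. Chromosome 11 holds 7 members (Rpl19, Rpl23, Rpl23a, Rpl26, Rpl27, Rpl38 and Rps27a), and all 7 fell in Mga-/- cells, by 0.34 to 1.08, where 35.4% of the 1345 other tested genes of that chromosome fell and their median was -0.23. All 7 also fell without the library labelled Mga-/- replicate 2. In L3mbtl2-/- cells 2 of these 7 fell with a member median of -0.25, where 19.3% of the 1345 other tested genes fell and their median was 0.14. Chromosome 7 holds 14 members, 10 of which fell in L3mbtl2-/- cells with a member median of -0.57, where 23.7% of the 1194 other genes fell and their median was -0.04. On chromosome 9, 5 of 6 fell in L3mbtl2-/- cells with a member median of -0.64, where 13.4% of the 849 others fell and their median was 0.14. Chromosome 16 holds Rpl24 and Rpl35a. Its 474 other tested genes had medians of -0.21 in Mga-/-, 0.03 in L3mbtl2-/- and -0.29 in Pcgf6-/- cells, where 30.4%, 20.5% and 16.2% of them fell. Of the 4 X-linked members, Rpl10 was described above, Rps4x was at 455 and 492 FPKM in L3mbtl2-/- libraries, against 635, 657 and 678 in WT (-0.47, adjusted p = 0.0871), and Rpl36a (-0.08, adjusted p = 0.71) and Rpl39 (-0.17, adjusted p = 0.512) did not pass.

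**Figure D4:**
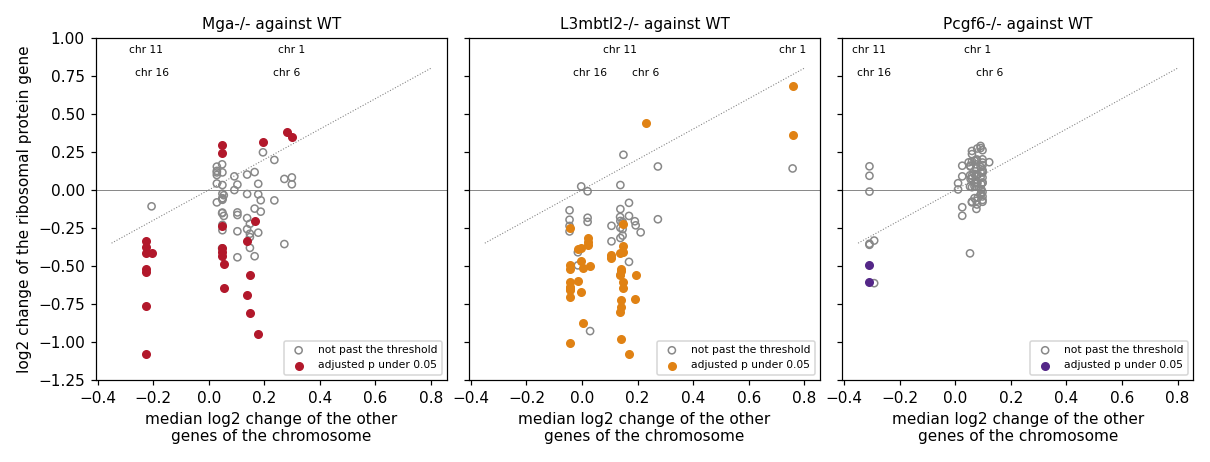
Log2 change of each of the 76 genes (y axis) against the median log2 change of the other tested genes of its chromosome (x axis) for each knockout against WT, with filled points for an adjusted p under 0.05 and a dotted line of equal change. In L3mbtl2-/- cells most points lie below the line, chromosome 1 stands at 0.76 on the x axis, and in Pcgf6-/- cells both filled points are on chromosome 11 at -0.31.

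A list of 11 tested paralogues and processed copies of ribosomal protein genes gave 5 higher and 1 lower in Mga-/- cells, 4 higher and 2 lower in L3mbtl2-/- cells and 0 in Pcgf6-/- cells, beside medians of 0.38, -0.28 and 0.17. The processed copies in it are Rpl34-ps1, 1 of the 5 higher in Mga-/- cells, and Rpl9-ps6. Rpl34-ps1 passed the filter on low values only through the libraries labelled Mga-/-, so its rise adds no support to that count. Of all tested genes, here and for the lists below, 22.8% rose and 16.7% fell in Mga-/-, 23.4% rose and 16.7% fell in L3mbtl2-/- and 5.45% rose and 4.62% fell in Pcgf6-/- cells, and without the library labelled Mga-/- replicate 2 it was 32.6% and 22.5% in Mga-/-. Without that library 5 of the 11 rose and 2 fell. Rpl10l is an autosomal retrocopy of Rpl10 that is known for its use in spermatocytes. It was at 78.9, 17.0 and 153 FPKM in libraries labelled Mga-/-, 44.4 and 44.9 in L3mbtl2-/- and 23.5 and 24.4 in Pcgf6-/-, against 9.69, 8.81 and 10.4 in WT. Every knockout library was above every WT library, with a log2 change of 2.61 in Mga-/- (SE 0.64, adjusted p = 0.0131), 2.202 in L3mbtl2-/- (SE 0.72, adjusted p = 0.0383) and 1.30 in Pcgf6-/- (SE 0.72, adjusted p = 0.292). On the FPKM scale Rpl10l made up 20.7%, 3.91% and 33.8% of the sum of Rpl10 and Rpl10l in the libraries labelled Mga-/-, 12.8% and 12.6% in L3mbtl2-/- and 4.63% and 4.78% in Pcgf6-/-, against 1.34% to 1.57% in WT. The sum itself was 382, 433 and 453 FPKM in libraries labelled Mga-/-, 346 and 356 in L3mbtl2-/- and 507 and 510 in Pcgf6-/-, against 648 to 665 in WT.

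Rpl39l, the paralogue of the X-linked Rpl39 that is also known from male germ cells, was at 5.48, 12.8 and 11.2 FPKM in libraries labelled Mga-/- and 18.3 and 19.4 in L3mbtl2-/-, with 3.37 and 3.11 in Pcgf6-/-, against 1.46, 1.76 and 3.44 in WT. It rose by 2.11 in Mga-/- (adjusted p = 0.00271) and by 3.13 in L3mbtl2-/- cells (adjusted p = 0.000738). Rps27l rose by 0.38 in Mga-/- and by 0.40 in L3mbtl2-/- cells (adjusted p = 0.00251 and 0.00311) and reached 56.3% and 56.1% of the sum of Rps27 and Rps27l in L3mbtl2-/- libraries, against 39.0% to 41.1% in WT. Rpl22l1 fell by 1.05 in Mga-/- and by 0.996 in L3mbtl2-/- cells (adjusted p = 0.00649 and 0.0127). Rps4l, an autosomal relative of Rps4x on chromosome 6, was at 643, 502 and 603 FPKM in libraries labelled Mga-/- and 172 and 168 in L3mbtl2-/-, against 370, 393 and 412 in WT. It rose in Mga-/- (0.56, adjusted p = 0.00243) and fell in L3mbtl2-/- cells (-1.21, adjusted p = 0.000136), and differed between them by 1.77 (adjusted p = 3.03e-05). Rpl7l1 rose in L3mbtl2-/- cells (0.35, adjusted p = 0.026), while Rpl36al, Rpl3l, Rps27rt and Rpl9-ps6 did not pass in any comparison with WT.

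Rpl34-ps1, a processed copy of Rpl34 on chromosome 6, was at 57.1, 87.0 and 62.8 FPKM in libraries labelled Mga-/- and listed at 0 in all L3mbtl2-/- and Pcgf6-/- libraries and in WT replicates 1 and 2, with 0.319 in WT replicate 3. Here the library labelled Mga-/- replicate 2 went with the other 2 of its label. Whether the libraries labelled Mga-/- differ from the other 7 in strain background or in processing was not tested, which bears on every value of Mga-/- against another genotype. Pseudogenes that match a member over at least 200 bases at 95% identity or more were then looked up, which was done after these values were seen. The 349 such copies in the files summed to 1433, 1687 and 1380 FPKM in libraries labelled Mga-/-, 576 and 651 in L3mbtl2-/- and 868 and 906 in Pcgf6-/-, against 805 to 866 in WT. Single copies, among them those named next, weigh on these sums, which cannot show whether copies as a group rose. Gm8730, a copy of Rplp0 on chromosome 8, was at 210, 212 and 177 FPKM in libraries labelled Mga-/-, against 0.040 to 0.769 in all the others. Gm10020, a copy of Rpl15 on chromosome 15, was at 44.6, 46.1 and 39.9 FPKM there, against 0 to 0.244 in the others, and Rpl3-ps1 was at 135, 166 and 161 FPKM, against 19.1 to 35.5. With the reads of all copies added to their members, an alternative chosen after seeing the data, 19 fell and 5 rose in Mga-/- cells and 39 and 3 in L3mbtl2-/- cells. Rps13 then no longer passed in Mga-/- cells (-0.29, adjusted p = 0.116), Rpl3 was at -0.31 in place of -0.49, and Rplp0 at -0.57 in place of -0.69.

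**Figure D5:**
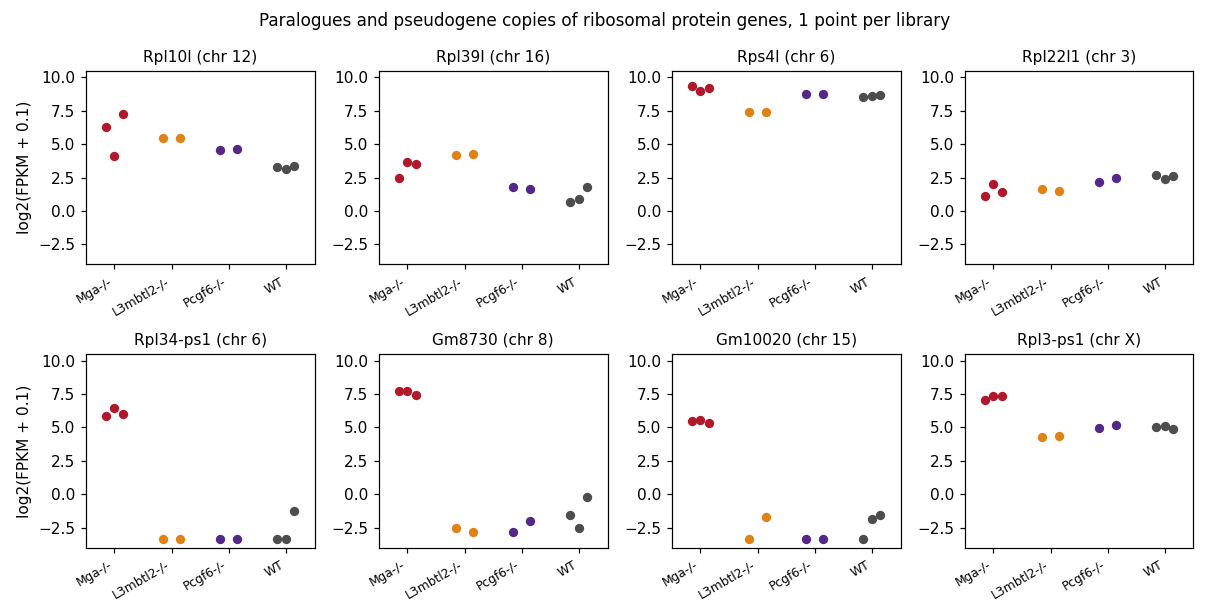
Log2(FPKM + 0.1) of 4 paralogues (top row) and 4 pseudogene copies (bottom row) of ribosomal protein genes, 1 point per library and the same y axis throughout. Rpl10l and Rpl39l are above WT in L3mbtl2-/- libraries and in the libraries labelled Mga-/-, and the copies in the bottom row are highest in the 3 libraries labelled Mga-/-, with Gm8730 at 177 to 212 FPKM there and at most 0.769 FPKM elsewhere.

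Among ribosome components outside the naming rule, Fau, which encodes the small subunit protein eS30 fused to a ubiquitin-like domain, was at 260 and 267 FPKM in L3mbtl2-/- libraries, against 419, 445 and 473 in WT (-0.76, adjusted p = 0.0037). Rack1, a scaffold on the small subunit, lies on chromosome 11 and fell in Mga-/- (-0.43, adjusted p = 0.012), L3mbtl2-/- (-0.50, adjusted p = 0.00929) and Pcgf6-/- cells (-0.50, adjusted p = 0.0297). Rps3a1 fell in Mga-/- cells (-0.57, adjusted p = 0.00252) and was at 1115 and 1065 FPKM in L3mbtl2-/- libraries, against 1133, 1151 and 1125 in WT.

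Genes of translation factors and of some other proteins, whose mRNAs are also known as TOP mRNAs, were lower in part. Of 20 tested, 8 fell in Mga-/- and 8 in L3mbtl2-/- cells, with medians of -0.29 and -0.30, against 0.10 and 0.13 for all tested genes, while in Pcgf6-/- cells 1 fell and 1 rose. In Mga-/- cells 15 fell without the library labelled replicate 2 and 6 without replicate 3. The falls over all libraries include genes that do not encode translation factors. These are Npm1, Nap1l1, Hnrnpa1 and Btf3 in Mga-/- cells and Nap1l1 and Btf3 in L3mbtl2-/- cells. Npm1 is also counted among the ribosome assembly genes below. Eef2, the elongation factor that moves the ribosome along the mRNA, was at 800 and 854 FPKM in L3mbtl2-/- libraries, against 1682, 1749 and 1803 in WT (-1.08, SE 0.15, adjusted p = 0.00107). Nap1l1 fell in Mga-/- (-1.02, adjusted p = 0.00116) and L3mbtl2-/- cells (-0.64, adjusted p = 0.0148), and Eef1d by 0.49 and 0.42. Npm1, a nucleolar chaperone on chromosome 11, fell in Mga-/- (-0.82, adjusted p = 0.00021) and Pcgf6-/- cells (-0.52, adjusted p = 0.0113).

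Among 20 regulators of growth and of TOP mRNAs, 10 fell and 2 rose in Mga-/-, 6 fell and 2 rose in L3mbtl2-/- and 5 fell in Pcgf6-/- cells, with medians of -0.21, -0.07 and -0.07. Without the library labelled Mga-/- replicate 2 it was again 10 and 2 in Mga-/- cells, and 4 rose without replicate 1 and 1 without replicate 3. Mycn, a MYC family gene and an activator of ribosome production, was at 46.6, 49.3 and 43.9 FPKM in libraries labelled Mga-/-, 22.7 and 23.4 in L3mbtl2-/- and 41.1 and 40.7 in Pcgf6-/-, against 81.6, 82.4 and 85.2 in WT. It fell by 0.83 in Mga-/- (adjusted p = 5.75e-05), 1.84 in L3mbtl2-/- (adjusted p = 2.18e-06) and 1.02 in Pcgf6-/- cells (adjusted p = 0.000209), with no overlap between groups. Larp1, on chromosome 11, fell by 1.17, 0.72 and 0.77 in the same order (adjusted p = 0.000304, 0.00447 and 0.0129), and the initiation factor gene Eif4g1 by 0.65, 0.43 and 0.32 (adjusted p = 0.000129, 0.0015 and 0.021). Changes of listed genes come from the main fit and are not measured against the other genes of their chromosome.

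Of 40 genes of ribosomal protein loading and ribosome assembly, 14 fell and 4 rose in Mga-/-, 10 fell and 6 rose in L3mbtl2-/- and 4 fell and 1 rose in Pcgf6-/- cells, with medians of -0.11, 0.01 and 0.10, and 17 fell and 4 rose in Mga-/- cells without the library labelled replicate 2. Rrn3, a starting factor of RNA polymerase I, fell by 0.50, 0.54 and 0.26 (adjusted p = 0.000299, 0.00037 and 0.0317), and Tsr1, which helps mature the small subunit and lies on chromosome 11, by 0.67, 0.31 and 0.61 (adjusted p = 0.000489, 0.0238 and 0.00562). These changes too are not measured against the other genes of the chromosome, and the part of chromosome-wide shifts in them was not tested. Among 12 tested small nucleolar RNA host genes, several of which are known as TOP transcripts without a protein, Gas5, Snhg8 and Snhg12 fell and Snhg11 rose in Mga-/- cells, and Snhg11 rose in L3mbtl2-/- cells (1.03). Without the libraries labelled Mga-/- replicates 1, 2 and 3 in turn, 1, 7 and 2 of the 12 fell. Gas5 was at 13.8, 15.2 and 8.28 FPKM in libraries labelled Mga-/- and 29.2 and 28.7 in L3mbtl2-/-, against 22, 20.9 and 21.8 in WT, and differed between the 2 knockouts (-1.26, adjusted p = 0.00461). Of 77 mitochondrial ribosomal protein genes, 9 rose and 18 fell in Mga-/-, 18 rose and 9 fell in L3mbtl2-/- and 7 rose and 2 fell in Pcgf6-/- cells, with medians of -0.05, 0.13 and 0.17, and in Mga-/- cells 19 rose and 20 fell without the library labelled replicate 2 and 14 rose without replicate 1. In L3mbtl2-/- cells the mitochondrial set thus had a median at that of all tested genes, 0.13, where the cytosolic set had -0.39, and no test of this difference was run.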

How the data were processed

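Per the labels' protocols, RNA extracted by Trizol went into NEBNext Ultra libraries, a kit that does not mark strand. The authors deposited FPKM per gene. Per the submitters' processing notes, Bowtie2 2.2.3, TopHat2 2.0.12 and HTSeq 0.6.0 were used with GRCm38, and no source used here gives the scaling. Whole reads were recovered from the steps of the values, within 0.005 of a read, for 22357 of 28713 genes above 0 at the GENCODE M21 exon length and for 6356 at a length found from the values. The FPKM had been scaled to reads assigned to genes.

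Of 30460 genes, 30250 matched GENCODE M21. The main test was not a count model, as the files hold FPKM, and limma-voom on the recovered reads was run as an alternative. limma 3.58.1 (R 4.3.3, variance trend on) was fitted to log2(FPKM + 0.1), which understates changes of low genes, over 15731 genes that reached 0.5 FPKM in 2 or more of the 10 libraries, in 1 fit with group as its term. P-values are two-sided and adjusted by Benjamini-Hochberg over those genes, with a threshold of 0.05. The fit was tested on simulated data, with the outcome not reported here. The simulation gave all libraries the same dispersion, so it did not test the fit under the unequal spread of these groups. The other alternatives changed the pseudocount, filter, scaling, samples, spread, replicate block, chromosome centring and copies, or left out each library.

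The members and gene lists were chosen with earlier results of these data known. Genes named are, in each knockout against WT, up to 6 members with the largest rises and falls among those past the threshold whose libraries did not overlap, the 4 highest and 4 lowest, the stalk genes, Rpsa, X-linked members, the 3 most variable, the targets and, of each list, up to 4 with the smallest p, all components and all paralogues. Some items this rule names are not reported here. Pseudogene copies, Rps9, Rpl35a, Rpl3 and the members of the chromosomes described were named after their values were seen. Read sharing with copies was checked with blastn. Counting limits cover counting error only.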

Additional observations from a re-analysis of the deposited data

How the results depend on the processing

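For each comparison, the counts higher and lower and the median log2 change over the 76 genes were recomputed under 11 alternatives and without each library. Shares of all tested genes are not given beside these counts, so the counts do not show how members compare with other genes. Mga-/- against WT gave 5 higher and 20 lower. The number higher was 2 with no filter on low values, 0 with median-of-ratios size factors, 1 with upper-quartile scaling, 2 with scaling to the FPKM sum of non-members, 0 with the 2 groups alone, 1 with a spread per group and 1 with chromosome-centred values, and the number lower was 10 with the 2 groups alone and 11 with a spread per group. Without single libraries it was 0 to 8 higher and 10 to 47 lower, with medians of -0.26 to -0.09. L3mbtl2-/- against WT gave 3 higher and 39 lower. The number higher was 1 with median-of-ratios size factors and 0 with chromosome-centred values, the number lower 62 with the 2 groups alone and 64 with a spread per group, and the median -0.48, -0.45 and -0.46 with median-of-ratios, upper-quartile and chromosome-centred values. Without single libraries it was 1 to 3 higher and 8 to 57 lower (-0.43 to -0.34). Pcgf6-/- against WT gave 0 higher and 2 lower. It was 15 and 6 with the 2 groups alone, 20 and 8 with a spread per group, 1 and 0 with chromosome-centred values, 1 higher with limma-voom and 1 higher with copies added (Rps2), and its median turned to -0.001 with the non-member sum. Without single libraries it was 0 to 6 higher and 0 to 5 lower (0.02 to 0.10). Mga-/- against L3mbtl2-/- (17 higher, 2 lower) gave 10 and 0 with no filter, 0 and 0 with the 2 groups alone and 9 higher with a spread per group, and 0 lower with median-of-ratios, 1 with upper-quartile, 1 with the non-member sum and 0 with chromosome-centred values. Without single libraries it was 0 to 27 higher and 0 to 12 lower (0.09 to 0.30). Mga-/- against Pcgf6-/- (14 lower) gave 7 with no filter, 9 with the non-member sum and 0 with the 2 groups alone, and without single libraries 1 to 46 lower and 0 to 3 higher (-0.30 to -0.09). L3mbtl2-/- against Pcgf6-/- (3 higher, 38 lower) gave 1 higher with no filter, 1 with median-of-ratios, 1 with upper-quartile and 0 with chromosome-centred values, 5 higher and 66 lower with the 2 groups alone, 5 and 63 with a spread per group, and medians of -0.47, -0.47 and -0.44 with median-of-ratios, upper-quartile and chromosome-centred values. Without single libraries it was 0 to 4 higher and 7 to 60 lower (-0.45 to -0.38). Same-numbered libraries did not deviate together (13 pairs, r of -0.02 to 0.04), so the replicate block pairs nothing but a number. With the replicate block the counts were 4 higher and 18 lower for Mga-/-, 1 and 34 for L3mbtl2-/- and 0 and 2 for Pcgf6-/- against WT, 0 lower for Mga-/- against L3mbtl2-/- and 6 lower for Mga-/- against Pcgf6-/-. Of 22 calls of named members, 200 of 242 held under the 11 alternatives, 40 lost the threshold and 2 changed sign, Rpl31 (-0.076) and Rpl7 (-0.399) in L3mbtl2-/- cells with chromosome-centred values. Without single libraries 159 of 220 held and 61 lost it. The main fit shares 1 spread among all groups, also in comparisons without Mga-/-. The median SD of all tested genes on the log2 scale was 0.338 in libraries labelled Mga-/-. It was 0.064 in L3mbtl2-/-, 0.067 in Pcgf6-/- and 0.086 in WT libraries. The cause of these shifts was not tested, and groups of 2 or 3 libraries limit the precision.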

Other observations

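Pseudogene copies of ribosomal protein genes were looked at as a group after their values were seen. Of 85 tested copies, 25 rose and 6 fell in Mga-/-, 11 rose and 16 fell in L3mbtl2-/- and 5 rose and 1 fell in Pcgf6-/- cells, with medians of 0.32, -0.17 and 0.13. A copy was tested if it reached 0.5 FPKM in any 2 libraries, so some entered only through the group where they are high. Rpl34-ps1, Gm8730 and Gm10020 entered through libraries labelled Mga-/- in this way, and Gm20568 through Pcgf6-/- libraries. The counts therefore cannot show whether copies as a group rose. Of all tested genes, 22.8% rose and 16.7% fell in Mga-/-, 23.4% and 16.7% in L3mbtl2-/- and 5.45% and 4.62% in Pcgf6-/- cells. Without the libraries labelled Mga-/- replicates 1, 2 and 3 in turn, 23, 27 and 22 copies rose and 2, 12 and 4 fell in Mga-/- cells. The copies came to 3.42% to 3.67% of the FPKM of their members in the 3 libraries labelled Mga-/-, the library labelled replicate 2 included, against 1.64% to 1.86% in the other 7. Single copies such as Gm8730, at 210, 212 and 177 FPKM in libraries labelled Mga-/-, weigh on this share, so it cannot show a rise of copies as a group. Gm10275, the copy with the highest mean level, was at 229, 289 and 226 FPKM there, against 232, 287 and 311 in WT. Rps2-ps6, chosen after its values were seen, was at 89.4, 95.2 and 94.4 FPKM in libraries labelled Mga-/-, against 4.995 to 9.82 in the others. Gm13192, a copy of Rps28 on chromosome 2 and also chosen after its values were seen, was at 47.4 and 58.2 FPKM in L3mbtl2-/- libraries, at most 3.00 in libraries labelled Mga-/- and 1.03 and 2.98 in Pcgf6-/-, against 0.603, 0.180 and 0.542 in WT. Small subunit genes summed to 1.02 and 1.03 times the FPKM of large subunit genes in L3mbtl2-/- libraries, 1.11 to 1.13 in the libraries labelled Mga-/- and 1.117 to 1.127 in Pcgf6-/-, against 1.09 in all 3 WT libraries.

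Promoter motifs were counted on both strands in the 66 RefSeq windows of members. The E-box CACGTG was in 12.1% of them and in 7.2% of all 32851 windows, the ETS motif CCGGAAGT in 16.7% and 3.9%, and the E2F motif TTTCCCGC and the T-box half-site AGGTGTGA in 0% of members and in 1.1% and 1.3% of all windows. In L3mbtl2-/- cells 22 of 48 members with a pyrimidine run of at least 8 bases near the start fell (median -0.31), and 4 of 8 without one (median -0.57), against 16.7% of all tested genes.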
